A study of Mus musculus with 8 samples.

Results

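The genes described here are 40 mouse genes that act in mitosis, chosen as a list of names that leaves out the kinesin motors as a class. Each of the 40 was represented by exactly 1 array row annotated to that gene alone, so all 40 were measured, among 22180 genes with such a row. The list holds 9 kinases, 9 kinetochore and checkpoint genes, 7 cyclins and cell cycle regulators, 6 spindle proteins, 4 cytokinesis genes, 3 members of the chromosomal passenger complex and 2 chromosome proteins. One listed gene, Cenpe, is itself a kinesin and was kept with the kinetochore genes as listed. The samples were lung mesenchymal cells, taken by flow sorting of lung cells without the leukocyte marker CD45, the endothelial marker CD31 and the epithelial marker EpCAM. They came from C57BL/6J mice aged 11 weeks, sorted on day 10 after an agent was given into the trachea. The agent was bleomycin, a DNA-damaging drug used to injure the lung, in 4 samples, and PBS, the vehicle, in the 4 control samples. The labels describe no genetic change in either group and do not say whether the 4 samples of a group came from separate animals or pools. The p-values therefore rest on the variation among these arrays, part or all of which may be technical. The comparison asks how the transcripts of these genes differed in mesenchymal cells of injured lungs.

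Mitosis begins when cyclin-dependent kinase 1 with its cyclins condenses the chromosomes and, with the polo-like and Aurora kinases, builds the spindle. Kinetochores, the protein plates on the centromeres, hold the spindle microtubules, and the spindle checkpoint blocks the anaphase-promoting complex (APC/C) until every kinetochore is attached. Most genes of this machinery are transcribed in cycling cells and held low in resting ones, and fibroblasts of an uninjured adult lung rarely divide.

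Of the 40 mitosis genes, 38 were higher in bleomycin samples and 0 were lower, at a limma adjusted p under 0.05 over all 22180 genes. At an unadjusted p under 0.05 the counts were 40 higher and 0 lower. Across all genes tested, 9.12% were called higher and 8.24% were called lower. The median log2 difference of the 40 genes was 1.5, within a range of 0.23 to 2.94, and the median over all genes was 0.03. A rise of more than 2-fold with the same adjusted p was found for 34 of the 40, against 1.98% of all genes. In 39 of the 40 genes the lowest bleomycin array lay above the highest control array, which was so for 12.5% of all genes. By size of rise, 13 of the 40 stood among the 100 genes with the largest differences. The 2 genes that did not pass were Espl1 and Bub3.

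**Figure D1:**
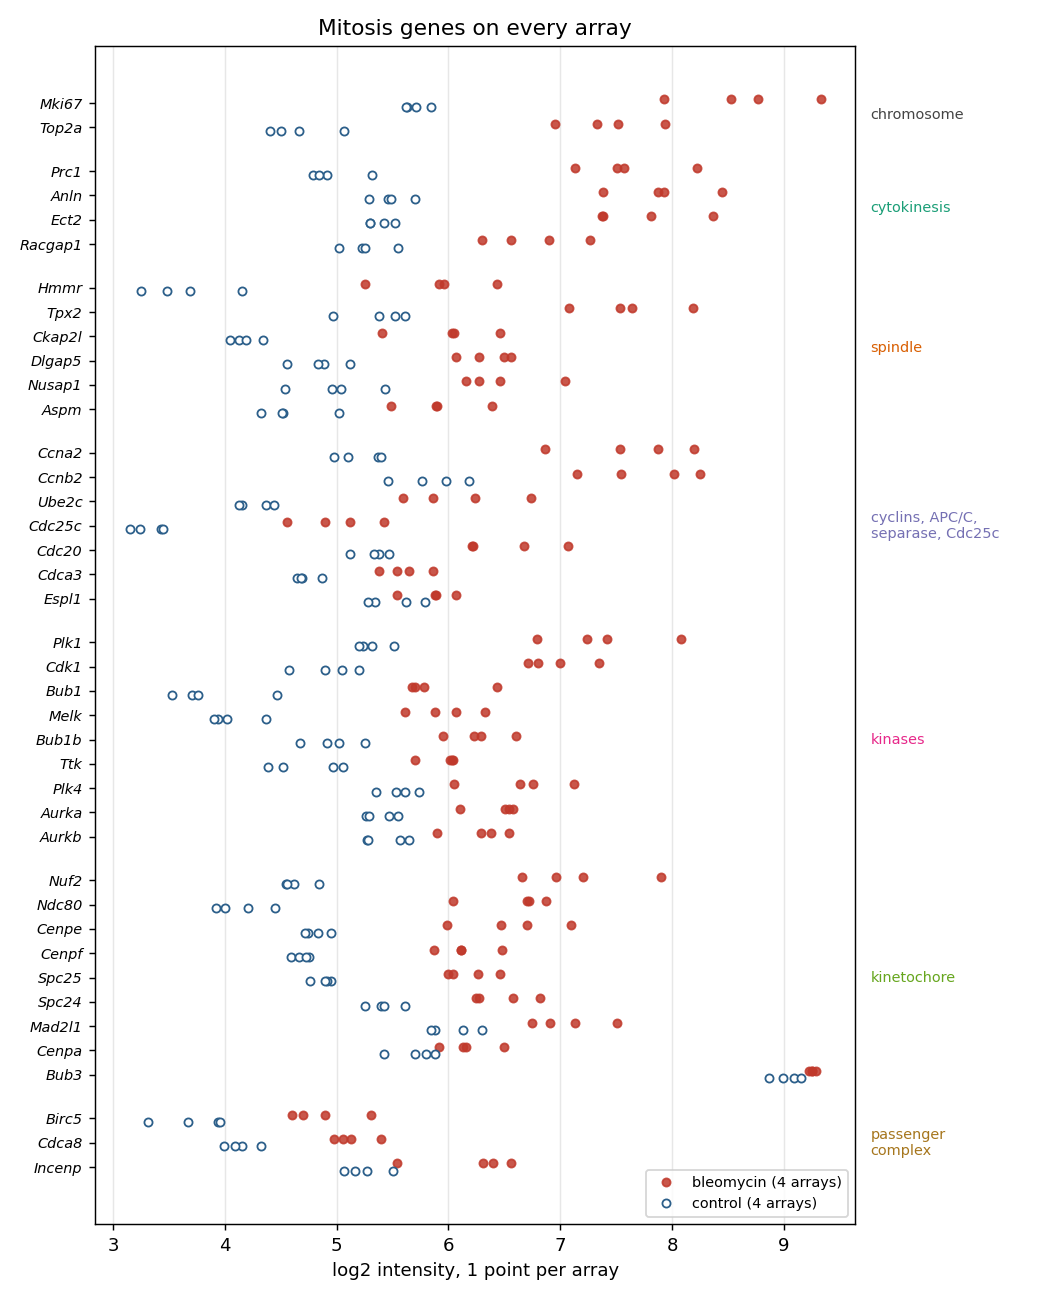
Log2 intensity (horizontal axis) of each of the 40 mitosis genes on every array, grouped by role, with 4 bleomycin arrays as filled points and 4 control arrays as open points. In 39 of the 40 genes the filled points lie to the right of all open points, and Espl1 is the exception.

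The mean log2 intensity over the 40 genes was 7.02, 6.58, 6.62 and 6.21 on bleomycin arrays 1 to 4, against 4.95, 5.08, 4.94 and 5.03 on control arrays 1 to 4. The 2 sets of arrays did not overlap, and the bleomycin arrays were spread more widely, at 6.61 ± 0.33 against 5 ± 0.07 in controls (SD, n = 4 each). Bleomycin array 1 was above its group's mean for 40 of 40 genes and was the highest of its group for 36. Bleomycin array 4 was below its group's mean for 40 of 40 and was the lowest for 34. Set against the control mean, the 40 genes were higher on average by 2.02, 1.58, 1.63 and 1.21 on bleomycin arrays 1 to 4. Even on array 4, 39 of the 40 genes exceeded every control array, and 24 exceeded the control mean by more than 2-fold. The SD over replicates was larger in bleomycin than in control samples for 35 of the 40 genes, with a median of 0.37 against 0.20, where the medians over all genes were 0.16 and 0.15. In bulk RNA, more cells in division and more of these transcripts in each dividing cell cannot be told apart.

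**Figure D2:**
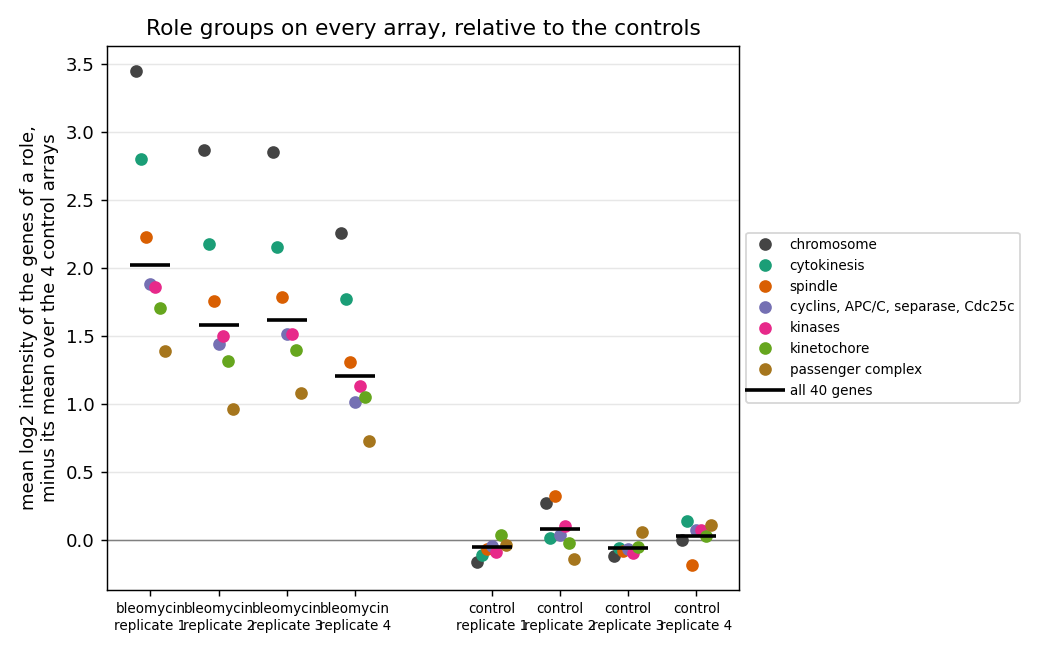
Mean log2 intensity of the genes of each role, minus the mean of that role over the 4 control arrays (vertical axis), for the 4 bleomycin arrays on the left and the 4 control arrays on the right. Points are role groups and bars the mean of all 40 genes, which stands at 2.02, 1.58, 1.63 and 1.21 on the bleomycin arrays.

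The arrays bear on the labelled cell type as follows. Over all genes, 9.12% were called higher and 8.24% lower in bleomycin samples. Of 8 fibroblast markers, 5 were higher (62.5%) and 2 were lower (25%). Among them, Pdgfra averaged 12.15 ± 0.09 log2 units in bleomycin and 12.58 ± 0.05 in control samples, and the collagen gene Col1a1 averaged 12.77 ± 0.13 and 11.94 ± 0.23 (SD, n = 4 each). Of 8 pericyte and smooth muscle markers, 5 were higher and 0 lower (0 also at an unadjusted p under 0.05), with list means of 8.46, 8.08, 8.42 and 8 on bleomycin arrays 1 to 4 against 7.42, 7.49, 7.46 and 7.30 on control arrays. This list had the same order over the bleomycin arrays, 1, 3, 2 and 4 from high to low, as the mean of the 40 mitosis genes. So did Acta2, which encodes smooth muscle actin, at 12.40, 12.01, 12.12 and 11.62, against 10.09, 9.90, 10.30 and 10.19 in control samples, a difference of 1.92 ± 0.16 (SE; adjusted p = 5.04e-05). Cspg4, Des, Cnn1 and Notch3 of this list rose by 1.37, 1.33, 0.88 and 0.63. Myh11, Rgs5 and Kcnj8 differed by 0.25, 0.21 and 0.02 and did not pass. Des, Myh11 and Cnn1 had the order 1, 3, 2 and 4 too, while Cspg4, Notch3, Rgs5 and Kcnj8 did not. The fibroblast list means were 11.51, 11.70, 11.75 and 11.64 on bleomycin arrays 1 to 4, lowest on array 1. Whether these orders are linked was not tested. Of 12 alveolar epithelial markers, 11 were lower in bleomycin samples, with list means of 6.56 to 7.42 on bleomycin arrays and 8.17 to 8.99 on control arrays. The exception was Epcam, which encodes the EpCAM of the sort. Epcam averaged 4.43 ± 0.37 in bleomycin and 4.99 ± 0.23 in control samples and did not pass (limma adjusted p = 0.0547). It passed as lower under 6 alternatives. Of 10 endothelial markers, 7 were lower, with list means of 7.01 to 7.47 against 7.70 to 8.84, and Pecam1, which encodes the CD31 of the sort, was 8.56 ± 0.29 in bleomycin and 9.87 ± 0.55 in control samples. Of 14 macrophage and monocyte markers, 9 were higher, with list means of 6.33 to 6.67 against 5.87 to 6.13. At an unadjusted p under 0.05, 10 were higher and 2 lower. With replicates 1 and 2 alone, 2 passed as higher and 2 as lower, and with replicates 3 and 4 alone 4 and 0. Bleomycin array 4, the lowest for the mitosis genes, was the highest for this list. Ptprc, which encodes CD45, averaged 6.22 ± 0.04 in bleomycin and 6.69 ± 0.34 in control samples and did not pass (adjusted p = 0.0529). It passed as lower under 8 alternatives, among them median centring (0.0345), array weights (0.0464) and the fit without control array 4 (0.00496). Array intensities have no true zero, so no marker could be called absent. The part of these shifts in the mitosis gene result was not tested. A repeat left out control arrays 1 and 2, which had the highest epithelial and endothelial list means. In that repeat 36 of the 40 genes were higher, and Cenpa and Incenp lost their calls. The marker shifts remained in it. Of the alveolar epithelial markers 10 were still lower (list median -1.10), as were 6 endothelial markers (-0.72), and 7 macrophage and monocyte markers were higher.

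Windows around the starts of these genes were searched for 2 motifs known from late cell cycle genes, and most windows held both. Promoters of late cell cycle genes commonly carry a cell cycle genes homology region (CHR), which binds the MuvB complex with its partners B-Myb and FoxM1, and CCAAT boxes, which bind NF-Y. RefSeq promoter windows (build GRCm38.p6, 250 bases before to 50 after the gene start) matched 33 of the 40 genes by symbol, in 36 windows, since Prc1, Ect2 and Bub3 had 2 each. Both strands were searched for the CHR letters TTTGAA or TTCGAA and for CCAAT. The CHR letters were found in 29 of the 36 windows (80.6%) and in 19.2% of all 32851 mouse promoter windows. In the last 100 bases of the window they were found in 75.0% and 5.31%. CCAAT was present in 77.8% of the 36 windows and 37.4% of all windows, and at least 2 times in 58.3% and 11.7%. Both elements together were found in 75.0% and 7.52%. These are counts of letters and no test of binding, and the 2 motifs can overlap. The windows do not depend on the arrays, so the counts say nothing about the difference between bleomycin and control samples.

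**Figure D3:**
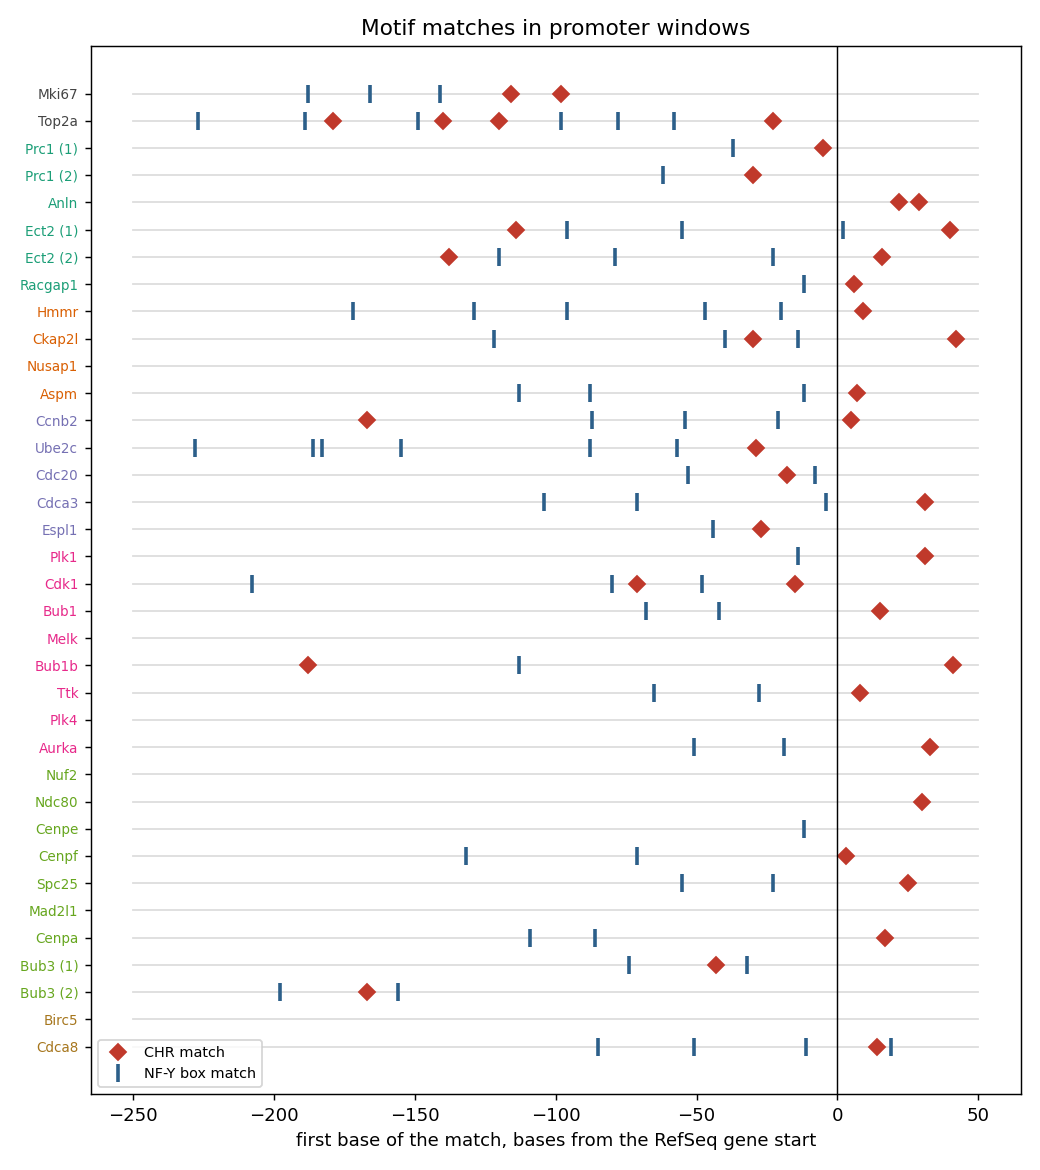
Positions of CHR matches (diamonds) and NF-Y box matches (ticks) in the 36 promoter windows of 33 mitosis genes, in bases from the RefSeq gene start (horizontal axis), with rows ordered and coloured by role and a second window of a gene marked (2). CHR matches fall in 29 of the windows, and 27 of the windows hold one in the last 100 bases.

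The sequences below run from 150 bases before to 30 after the gene start, 5′ to 3′ on the gene's own strand, in lower case with CHR and CCAAT matches of either strand in capitals, where a match on the other strand reads TTCAAA or ATTGG. They show, for each role, a raised gene whose window holds both elements and, last, the 2 genes that did not pass. Those of Mki67 (chr7:135716350-135716529, minus strand), Prc1 (chr7:80294301-80294480, plus strand, the first of 2 windows), Hmmr (chr11:40733408-40733587, minus), Cdk1 (chr10:69352883-69353062, minus), Ccnb2 (chr9:70421525-70421704, minus), Cenpf (chr1:189688057-189688236, minus) and Cdca8 (chr4:124936888-124937067, minus) stand before Espl1 (chr15:102296143-102296322, plus) and Bub3 (chr7:131560220-131560399, plus, the first of 2 windows).
Mki67: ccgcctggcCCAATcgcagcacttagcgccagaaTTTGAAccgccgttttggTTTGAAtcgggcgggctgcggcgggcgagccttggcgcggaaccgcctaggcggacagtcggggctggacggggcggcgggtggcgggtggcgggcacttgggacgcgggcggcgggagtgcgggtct
Prc1: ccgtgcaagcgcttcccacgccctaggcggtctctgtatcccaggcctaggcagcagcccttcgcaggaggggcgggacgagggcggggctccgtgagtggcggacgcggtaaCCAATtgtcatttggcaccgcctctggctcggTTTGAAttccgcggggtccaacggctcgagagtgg
Hmmr: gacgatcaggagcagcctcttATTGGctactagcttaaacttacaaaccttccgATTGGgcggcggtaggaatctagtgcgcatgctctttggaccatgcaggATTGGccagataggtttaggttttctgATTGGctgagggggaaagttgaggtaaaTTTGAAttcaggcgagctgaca
Cdk1: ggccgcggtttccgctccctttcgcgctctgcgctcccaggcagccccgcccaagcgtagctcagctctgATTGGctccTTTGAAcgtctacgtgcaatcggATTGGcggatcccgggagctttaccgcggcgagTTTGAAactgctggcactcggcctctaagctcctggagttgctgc
Ccnb2: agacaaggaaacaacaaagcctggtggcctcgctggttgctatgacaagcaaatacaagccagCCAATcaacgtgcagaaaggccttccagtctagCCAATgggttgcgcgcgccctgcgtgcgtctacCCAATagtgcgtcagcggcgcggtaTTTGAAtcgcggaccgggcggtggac
Cenpf: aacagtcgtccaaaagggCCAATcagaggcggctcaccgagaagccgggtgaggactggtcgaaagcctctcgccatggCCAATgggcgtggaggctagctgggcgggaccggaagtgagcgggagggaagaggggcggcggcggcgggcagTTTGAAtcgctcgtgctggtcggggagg
Cdca8: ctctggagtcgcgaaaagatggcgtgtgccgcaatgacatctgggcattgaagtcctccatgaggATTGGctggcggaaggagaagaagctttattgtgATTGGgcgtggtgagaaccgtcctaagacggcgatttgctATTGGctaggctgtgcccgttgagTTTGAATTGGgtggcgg
Espl1: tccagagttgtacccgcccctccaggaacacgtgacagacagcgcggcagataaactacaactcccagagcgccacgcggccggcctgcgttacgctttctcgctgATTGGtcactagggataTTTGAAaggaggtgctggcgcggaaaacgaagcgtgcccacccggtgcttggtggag
Bub3: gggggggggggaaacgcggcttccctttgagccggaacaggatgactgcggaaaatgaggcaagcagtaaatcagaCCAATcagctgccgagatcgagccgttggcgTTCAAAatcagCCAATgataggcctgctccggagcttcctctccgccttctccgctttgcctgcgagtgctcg

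In these windows the Mki67 CHR matches start at -116 and -98, with a CCAAT box upstream of them at -141. Hmmr has 5 CCAAT boxes before a CHR match at 9, all on the reverse strand, 4 of them in the part shown. Ccnb2 has CCAAT boxes at -87, -54 and -21 and a CHR match at 5. Cdca8 has a CHR match at 14 that overlaps a reverse CCAAT box. Espl1 and Bub3 hold both elements too, Espl1 with CHR letters at -27 and Bub3 at -43, although neither passed the test. The median log2 difference was 1.65 over the 26 genes with CHR letters and 1.49 over the 7 genes whose window lacked them. For CHR letters in the last 100 bases the order was the other way (1.49 with, 1.62 without). That split differed from the first in Mki67 alone, the gene with the largest difference, whose CHR letters lie only further upstream. The order was also the other way for CCAAT (1.49 and 1.70) and for at least 2 CCAAT boxes (1.46 and 1.62). It was so for both elements together as well (1.48 and 1.76). These windows thus gave no steady relation between the motifs and the size of the rise. Nuf2, Melk, Nusap1, Birc5, Plk4 and Mad2l1 had neither motif in the window and all 6 were higher in bleomycin samples. Cenpe, the remaining gene without CHR letters, had a single CCAAT box at -12. Entries for Cdc25c, Aurkb, Dlgap5, Spc24, Incenp, Ccna2 and Tpx2 were not used here.

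Both chromosome proteins rose, and they had the largest differences of the 40. Mki67 encodes Ki-67, which coats mitotic chromosomes and is the usual stain for cycling cells. It measured 9.33, 8.77, 8.53 and 7.93 log2 units on bleomycin arrays 1 to 4, against 5.63, 5.84, 5.62 and 5.71 on control arrays 1 to 4. The bleomycin values ran over more than a log2 unit while the controls were close together, and the groups were far apart. The difference was 2.94 ± 0.24 (SE; 7.67-fold, limma adjusted p = 4.54e-05). Top2a, the topoisomerase that untangles sister chromatids, measured 7.94, 7.33, 7.52 and 6.95 in bleomycin and 4.40, 5.07, 4.5 and 4.66 in control samples. Its difference was 2.78 ± 0.21 (SE; 6.86-fold, adjusted p = 3.14e-05), again with no overlap.

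Of the 7 cyclins and regulators, 6 rose, with a group median of 1.68. Ccna2 encodes cyclin A2, which acts from S phase into early mitosis. It measured 8.20, 7.53, 7.87 and 6.86 in bleomycin samples and 4.98, 5.37, 5.10 and 5.40 in controls, a difference of 2.41 ± 0.24 (SE; adjusted p = 0.000156). Ccnb2 encodes cyclin B2, a partner of cyclin-dependent kinase 1. It measured 8.25, 8.02, 7.54 and 7.15 in bleomycin samples and 5.76, 5.46, 6.18 and 5.98 in controls, a difference of 1.90 ± 0.23 (SE; adjusted p = 0.000468). Both cyclins were lowest on bleomycin array 4, and even that array stood clear of the controls. Ube2c, the ubiquitin-conjugating enzyme of the APC/C, rose by 1.84, Cdc20, its mitotic activator, by 1.22, and Cdc25c, a phosphatase that activates cyclin-dependent kinase 1, by 1.68. Cdca3, which promotes the destruction of the Wee1 kinase at mitotic entry, rose by 0.88. Espl1 encodes separase, the protease that cuts cohesin at anaphase. It measured 5.89, 5.88, 6.07 and 5.54 in bleomycin samples and 5.34, 5.79, 5.28 and 5.62 in controls. These groups overlapped, since bleomycin array 4 lay below 2 of the control arrays, and the difference of 0.34 ± 0.14 (SE; 95% interval 0.02 to 0.66) had an adjusted p of 0.138.

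All 9 kinases rose, with a median of 1.31. Plk1, the polo-like kinase of spindle assembly and mitotic exit, measured 8.08, 7.24, 7.42 and 6.79 in bleomycin samples and 5.24, 5.32, 5.20 and 5.51 in controls. Cdk1, the kinase that drives entry, measured 7.35, 7, 6.80 and 6.71 in bleomycin samples and 4.57, 5.20, 4.90 and 5.05 in controls. The 2 genes rose by near-equal amounts, 2.07 ± 0.22 and 2.03 ± 0.17 (SE; adjusted p = 0.000239 and 4.9e-05), and Cdk1 varied less among the bleomycin arrays. Bub1, a checkpoint kinase at the kinetochore, rose by 2.03 and Melk, a kinase of cycling cells, by 1.92. Bub1b, which encodes the checkpoint protein BubR1, rose by 1.31, and Ttk, the checkpoint kinase Mps1, by 1.21. Plk4, which starts centriole duplication, rose by 1.08 and Aurka, the centrosome and spindle pole Aurora kinase, by 1.04. Aurkb, the Aurora kinase of the passenger complex, had the smallest difference of the 9. It measured 6.54, 6.29, 6.38 and 5.90 in bleomycin samples and 5.27, 5.28, 5.65 and 5.57 in controls, a difference of 0.84 ± 0.15 (SE; adjusted p = 0.00335) with no overlap.

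The kinetochore and checkpoint genes spanned the widest range of the role groups: 8 of 9 rose, with a median of 1.31 and differences of 0.23 to 2.54. Nuf2 and Ndc80 form the arm of the Ndc80 complex that binds the microtubule. Nuf2 measured 7.90, 6.96, 7.20 and 6.66 in bleomycin samples and 4.84, 4.62, 4.55 and 4.56 in controls. Ndc80 measured 6.87, 6.72, 6.70 and 6.04 in bleomycin samples and 4.21, 4.45, 3.92 and 4 in controls. Both were well separated between the groups, with differences of 2.54 ± 0.22 and 2.44 ± 0.18 (SE; adjusted p = 6.28e-05 and 3.21e-05). Their partners Spc25 and Spc24, which join the complex to the inner kinetochore, rose by 1.31 and 1.06. Their 95% intervals, 1.05 to 1.56 and 0.75 to 1.37, lay below those of Nuf2, 2.05 to 3.02, and Ndc80, 2.03 to 2.84, and the differences between these genes were not tested. Cenpe, the kinesin that carries chromosomes to the spindle equator, rose by 1.76, and Cenpf, a large protein of the outer kinetochore, by 1.46. Mad2l1, which encodes the checkpoint protein Mad2, rose by 1.04.

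Cenpa and Bub3 stood at the low end of the kinetochore group. Cenpa encodes the histone H3 variant that marks centromeres, and it measured 6.50, 6.13, 6.16 and 5.92 in bleomycin samples and 5.70, 5.42, 5.80 and 5.88 in controls. Only a narrow gap separated the groups, and the difference of 0.48 ± 0.14 (SE) passed with an adjusted p of 0.0401. That call was lost when any one of bleomycin arrays 1, 2 and 3 or control arrays 1, 2 and 3 was left out (adjusted p 0.0645 to 0.1), and under 13 of 23 other settings in all. Bub3, a checkpoint protein that also has work outside mitosis, measured 9.29, 9.22, 9.25 and 9.25 in bleomycin samples and 9.09, 8.87, 8.99 and 9.15 in controls. Its groups did not overlap, but the difference was 0.23 ± 0.09 (SE; 95% interval 0.04 to 0.42) with an adjusted p of 0.102. Bub3 was 1 of 6 genes with their lowest bleomycin value on array 2, where 34 had it on array 4.

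All 6 spindle genes rose, each by more than 2-fold, with a median of 1.65. Hmmr encodes a microtubule-binding protein of the spindle poles that also binds hyaluronan. It measured 6.43, 5.96, 5.92 and 5.25 in bleomycin samples and 3.69, 4.15, 3.25 and 3.48 in controls. Tpx2, which activates Aurora A and helps microtubules form near chromosomes, measured 8.19, 7.53, 7.64 and 7.08 in bleomycin samples and 5.61, 5.52, 5.38 and 4.97 in controls. The groups were separate for both genes, with differences of 2.25 ± 0.25 for Hmmr and 2.24 ± 0.22 for Tpx2 (SE; adjusted p = 0.000247 and 0.000127). The control mean of Hmmr, 3.64, lay below the lowest median of rows annotated to no gene, 4.44, so its difference may be understated and is not set against that of Tpx2, whose control mean was 5.37. Ckap2l, a spindle pole protein, rose by 1.81, Dlgap5, which stabilises kinetochore fibres, by 1.5, and Nusap1, which bundles spindle microtubules, by 1.49. Aspm, a spindle pole protein known from inherited microcephaly, had the smallest difference. It measured 6.39, 5.90, 5.89 and 5.49 in bleomycin samples and 4.32, 5.02, 4.52 and 4.51 in controls, a difference of 1.32 ± 0.20 (SE; adjusted p = 0.00129).

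The 3 passenger complex genes rose, with a median of 1.01, which was below that of the kinetochore genes in all samples (1.31) but not with replicates 1 and 2 alone (1.36 against 1.31 for the kinetochore genes). For Birc5 and Cdca8 the control means, 3.72 and 4.14, lay below the lowest median of control-array rows annotated to no gene, 4.44, so their differences may be understated and their place among the 40 genes is uncertain. This complex brings Aurora B to the centromere and later to the midzone. Birc5, which encodes survivin, measured 5.31, 4.60, 4.90 and 4.70 in bleomycin samples and 3.67, 3.31, 3.94 and 3.96 in controls, a difference of 1.16 ± 0.18 (SE; adjusted p = 0.00182). Cdca8, which encodes borealin, measured 5.40, 4.98, 5.13 and 5.06 in bleomycin samples and 4.15, 4.32, 4.09 and 3.99 in controls, a difference of 1.01 ± 0.11 (SE; adjusted p = 0.000296). Incenp, the scaffold of the complex, measured 6.56, 6.40, 6.31 and 5.54 in bleomycin samples and 5.16, 5.07, 5.27 and 5.5 in controls. Bleomycin array 4 came within 0.04 of the highest control array for Incenp, and the difference was 0.95 ± 0.20 (SE; adjusted p = 0.00852).

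The 4 cytokinesis genes rose with a median of 2.39. Prc1 bundles the antiparallel microtubules of the spindle midzone. It measured 8.22, 7.51, 7.57 and 7.13 in bleomycin samples and 4.91, 4.79, 4.84 and 5.32 in controls, a difference of 2.64 ± 0.21 (SE; 6.24-fold, adjusted p = 4.34e-05). Anln, the anillin scaffold of the contractile ring, measured 8.45, 7.93, 7.87 and 7.38 in bleomycin samples and 5.46, 5.70, 5.49 and 5.29 in controls, a difference of 2.42 ± 0.19 (SE; adjusted p = 4.42e-05). Both genes were far from overlap. Ect2, the exchange factor that activates RhoA at the cell equator, rose by 2.35. Its partner Racgap1, which forms the centralspindlin complex with the kinesin Kif23, measured 7.27, 6.56, 6.90 and 6.30 in bleomycin samples and 5.02, 5.23, 5.25 and 5.55 in controls. That difference, 1.49 ± 0.19 (SE; adjusted p = 0.000617), was the smallest of the 4.

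**Figure D4:**
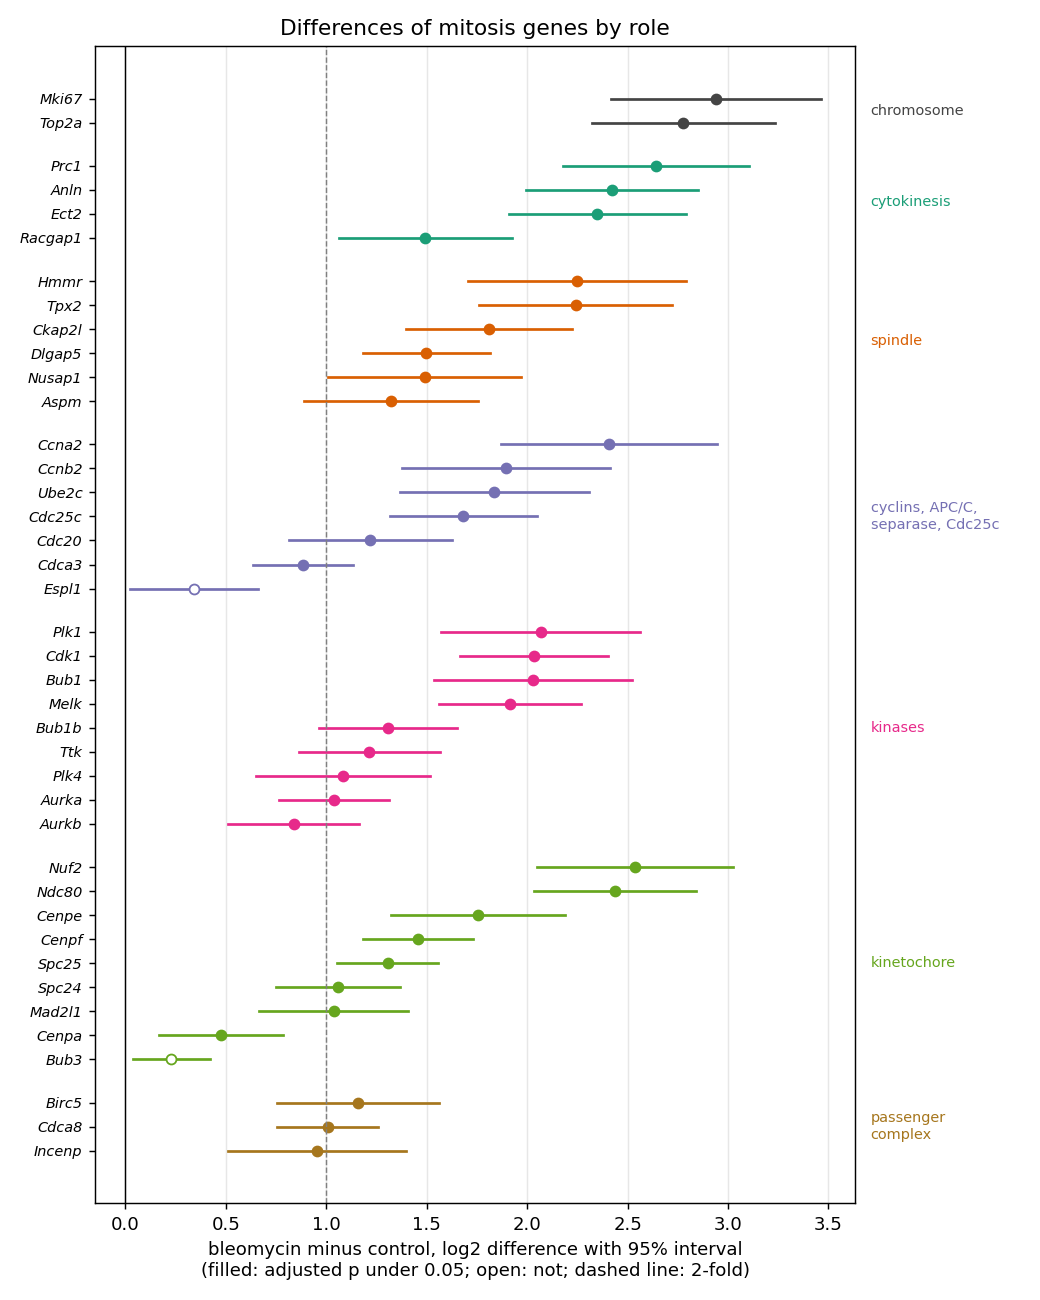
Bleomycin minus control log2 difference (horizontal axis) with its 95% interval for each of the 40 genes, ordered by role, where filled points passed the adjusted p threshold of 0.05 and the dashed line marks 2-fold. The 34 points right of the dashed line passed, and the open points are Espl1 at 0.34 and Bub3 at 0.23.

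Set side by side, the role medians were 2.86 for the chromosome proteins, 2.39 for cytokinesis, 1.68 for cyclins and regulators, 1.65 for the spindle, 1.31 for kinases, 1.31 for the kinetochore and 1.01 for the passenger complex. The ranges of the groups overlapped widely, as between kinases, 0.84 to 2.07, and spindle genes, 1.32 to 2.25, and the differences between roles were not tested. For 9 genes, Ndc80, Hmmr, Bub1, Melk, Ube2c, Ckap2l, Cdc25c, Birc5 and Cdca8, the control mean lay below the lowest median intensity of control-array rows annotated to no gene, which was 4.44 to 4.52. In bleomycin samples 0 of the 40 lay below the corresponding medians of 4.20 to 4.35.

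Other genes of the machinery were counted from lists that hold none of the 40. Where a list below has 0 genes that fell, its count at an unadjusted p under 0.05 was 0 as well, except for 1 mitotic entry gene. All 12 mitotic kinesins rose, with a median of 1.47, led by Kif20a at 2.19 and Kif23 at 2.14, both motors of the midzone, and the spindle motor Kif11 at 1.93. Of 21 further centrosome and microtubule genes, 14 rose and 0 fell, with a median of 0.80. The largest of these was the spindle protein Ckap2 at 2.63 ± 0.13 (SE; adjusted p = 3.14e-06). Depdc1a followed at 2.35 and the mitotic kinase gene Pbk at 2.13. Of 22 further centromere and outer kinetochore genes, 13 rose and 0 fell, with a median of 0.48, and the count was 9 with each array centred on its median. Knl1, the kinetochore scaffold that recruits Bub1 and Bub3, rose by 2.31, and the centromere genes Cenpn and Cenpi by 1.57 and 1.37. Of 11 further checkpoint and corona genes, 7 rose and 0 fell, with a median of 0.73, among them Trip13, which resets Mad2, at 1.45, Kntc1 at 1.26 and Spdl1 at 1.17. Of 7 condensin subunits, 5 rose and 0 fell, with a median of 0.81, led by Ncaph at 1.32, Smc2 at 1.22 and Smc4 at 1.

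The APC/C and cohesin lists had smaller medians than the lists above. Of 17 APC/C genes, 3 rose (17.6%) and 1 fell (5.88%), against 9.12% and 8.24% of all genes, with a median of 0.12. The APC/C inhibitor Fbxo5 rose by 0.84, Cdc16, a subunit, by 0.45 and Ube2s, which extends ubiquitin chains, by 0.33, and the subunit Anapc16 fell by 0.35. The calls of Ube2s and Anapc16 were each lost on leaving out 6 of the 8 arrays, one at a time (adjusted p up to 0.0915 and 0.112). Of 15 cohesin genes, 3 rose and 3 fell (20.0% each), with a median of -0.11. Those that rose were the acetyltransferase Esco2 at 1.26, the centromere protector Sgo1 at 1.01 and sororin, Cdca5, at 0.98. The cohesin subunit Stag2 fell by 0.49 and the second acetyltransferase, Esco1, by 0.44. Pttg1 encodes securin, the inhibitor of separase, and it measured 6.74, 7.01, 6.84 and 6.98 in bleomycin samples and 7.33, 7.40, 7.60 and 7.48 in controls. It was thus lower on every bleomycin array, by -0.56 ± 0.10 (SE; adjusted p = 0.00332), while Espl1, at 0.34, did not pass.

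Among 14 genes of the MuvB complex, its partners and the pocket proteins, 5 rose (35.7%) and 3 fell (21.4%), with a median of 0.11. Foxm1, the transcription factor of late cell cycle genes, measured 6.81, 6.65, 6.57 and 6.60 in bleomycin samples and 5.25, 5.32, 5.24 and 5.70 in controls, a difference of 1.28 ± 0.12 (SE; adjusted p = 9.69e-05). On Foxm1 the bleomycin arrays were close together and array 4 was not the lowest. Mybl2, which encodes B-Myb, rose by 0.71 in the brighter of its 2 rows, and the dimmer row differed by -0.07. Its call was lost without bleomycin array 1, control array 2 or control array 4 (adjusted p 0.0525 to 0.0624). Rbl1 and Tfdp1 rose by 0.83 and 0.76, while Lin52, a MuvB subunit, fell by 0.76, Rbl2, the pocket protein of resting cells, by 0.38 and Tfdp2 by 0.31. The calls of Rbl2 and Tfdp2 were lost on leaving out 6 and 7 of the 8 arrays, one at a time (adjusted p up to 0.0879 and 0.114). Of 8 mitotic entry genes, 3 rose and 0 fell, with a median of 0.29, led by the Cdk1-binding gene Cks2 at 2.08 and Mastl, the Greatwall kinase, at 1.58, with Cdc25a at 0.56. Ccnb1 was not analysed here. Of 28 replication genes, 19 rose and 0 fell, with a median of 0.66, led by Rrm2 at 1.70, Mcm5 at 1.40 and Pole at 1.36, where Rrm2 and Pole each had a second, dimmer row at 0.09 and 0.02. Of 14 genes of quiescence and cell cycle exit, 1 rose (7.14%) and 6 fell (42.9%), against 9.12% and 8.24% of all genes. The list's median was -0.30. The gene that rose was Cdkn1a, the p21 inhibitor, at 0.99 ± 0.17 (SE), and those that fell included Ccng2 by 0.93, the p27 inhibitor Cdkn1b by 0.61 and Foxo3 by 0.55.

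**Figure D5:**
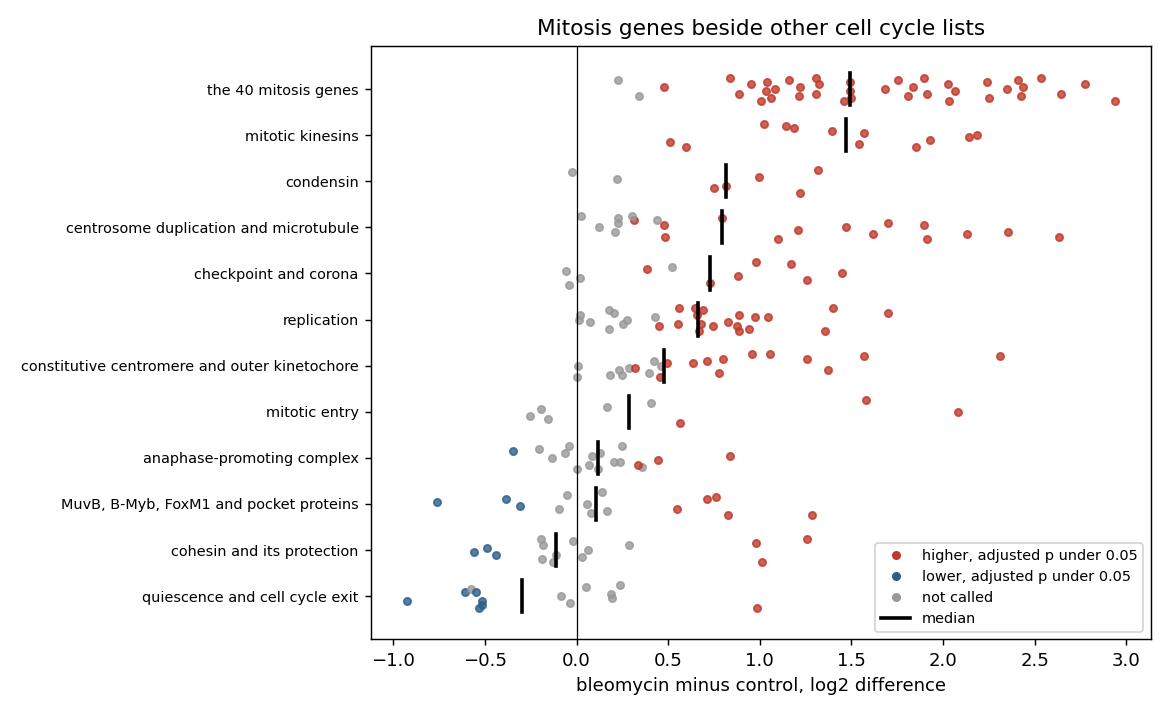
Bleomycin minus control log2 difference (horizontal axis) of the genes of each list, 1 point per gene, coloured by whether it passed an adjusted p of 0.05 in either direction, with a bar at the list's median. The 40 mitosis genes, at a median of 1.5, and the mitotic kinesins, at 1.47, lie to the right, and the quiescence list, at -0.30, to the left.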

How the data were processed

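Total RNA from sorted cells was labelled with biotin and hybridised to 8 expression arrays, 1 per sample, per the labels' protocols. The values used are the log2 intensities deposited by the authors; that they are on a log2 scale was taken from their range (0.24 to 13.58), and no source used here gives their background correction or normalization. The precision is limited by the 4 arrays per group. Array medians over the tested genes differed by 0.071, so the values were used as deposited. Genes were named from the platform annotation: 23521 of 41345 rows carried 1 gene, 1814 several and 16010 none, and only rows with 1 gene were used. For the 1082 genes with more than 1 row, the row with the highest mean was kept, and the 22180 genes were fitted with limma 3.58.1 (R 4.3.3; lmFit and eBayes, two-sided, Benjamini-Hochberg adjustment), bleomycin minus control. The fit was also run on simulated data with 200 genes changed, and the outcome is not given here. The 40 genes, their roles and all other lists were chosen with earlier results of these data known. Values on every array are given for the 2 largest and the smallest difference of each role and for genes that did not pass, and from other lists up to 3 genes per direction are named, with Foxm1, Mybl2, Pttg1 and Cdkn1a in addition. Cenpa was given array values after its own values were seen. Alternatives changed the replicate block, between-array normalization, dim-gene filter, row choice, eBayes settings, array weights, thresholds and arrays used.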

Additional observations from a re-analysis of the deposited data

Results flagged for a closer look

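Dixon's test on the 4 arrays of each group, run for the 40 mitosis genes, marked 3 of 80 groups, where chance marks about 1 in 20. Bub1 measured 6.43 on bleomycin array 1, while the other bleomycin arrays were between 5.67 and 5.78. Aurka measured 6.10 on bleomycin array 4, with the others between 6.51 and 6.58. Ttk measured 5.70 on the same array, with the others between 6.01 and 6.04. All 3 values remained above every control array of their gene.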

How the results depend on the processing

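Across 23 alternative settings, none of the 40 genes turned to a lower value in bleomycin samples, and 0 were called lower in any setting. The thresholds, blocks, dim-gene filters and eBayes settings leave each gene's difference as it was, so they could not change its direction. The number called higher was 38 with quantile normalization, trended and robust eBayes, and array weights, and 37 with each array centred on its median, where Cenpa had an adjusted p of 0.0606. Leaving out 1 array gave 37 to 38 calls and medians of 1.40 to 1.62. Replicates 1 and 2 alone gave 37 calls and replicates 3 and 4 alone 30, where Aurka, Aurkb, Plk4, Ttk, Cenpa, Mad2l1, Racgap1 and Incenp lost theirs. Other choices of row could not change these genes, which have 1 row each. An adjusted p under 0.01 left 37 calls. Leaving out the dimmest 30% of genes kept 38 of the 40 genes, of which 36 were called, and leaving out the dimmest 50% kept 27, of which 26 were called, with Bub3 now passing (adjusted p = 0.0412).

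The kinetochore median was 1.06 over the 7 genes left without the dimmest 50%. The kinase and passenger medians were 1.57 and 1.36 with replicates 1 and 2 alone, where the kinetochore median was 1.31, and the regulator median was 1.27 with replicates 3 and 4 alone. The dimmer row of Mybl2 gave -0.0671 (adjusted p = 0.802), and the cause was not tested. Over all genes, 2022 were higher and 1828 lower as deposited, 2567 and 1589 after quantile normalization, 1623 and 2314 after median centring.

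Bleomycin and control samples share replicate numbers, and whether these numbers pair them was not settled. Same-numbered deviations correlated at 0.06 to 0.13, over 0.1 in 2 of 4 pairs, and 2 of 4 bleomycin arrays correlated best with their own number. With the replicate block, 37 of the 40 genes were called higher, Cenpa having an adjusted p of 0.0617. Replicates 1 and 2 stood apart from 3 and 4 in both groups: the second principal component (11.1% of the variance) was positive for the first 2 replicates and negative for the others, and deviations correlated at 0.06 to 0.13 between groups within these sets and at -0.14 to -0.07 across them. The labels name no batch. With that split as a block, 38 of the 40 genes were called higher, and over all genes 2293 were higher and 2168 lower. Each set holds as many bleomycin as control arrays, so this block cannot change the differences or their median, 1.5.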
